A study of Mus musculus with 20 samples.

Results

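The genes described here are 10 genes of cartilage cells and their matrix. They are the chondrocyte transcription factors Sox5, Sox6 and Sox9, the matrix genes Acan, Comp, Matn2, Matn3 and Matn4, and the genes Hapln1 and Chad, whose products bind other matrix components. Members were taken by name as those whose symbol stands alone on a probe set in the platform annotation, and all 10 of 10 were found, with 1 probe set each, among 22180 genes with a symbol of their own. The arrays measured total RNA of C2C12, a mouse myoblast line, as log2 signals. Cultures were passaged before they became confluent, seeded in wells, and treated the next morning in fresh serum medium. How long treatment lasted is not stated in the labels. The groups were untreated cells (2 arrays), methanol (3 arrays, taken as the vehicle of the compounds), recombinant BMP4 at 10, 100 and 300 ng/ml (2 arrays each), and the compounds 942, 178 and 181, each at 6.25, 12.5 and 25 µM (1 array per dose). By its title the series concerns small-molecule activators of the BMP pathway, and its design compares 3 drugs with BMP4.

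Cartilage forms when mesenchymal cells condense and become chondrocytes. SOX9 is the factor needed for that step, and SOX5 and SOX6 bind DNA with it to drive the genes of cartilage matrix. Aggrecan (Acan) is the large proteoglycan that holds water in cartilage, the link protein Hapln1 ties it to hyaluronan, and COMP and the matrilins connect collagen fibrils and proteoglycans. Bone morphogenetic proteins can drive both cartilage and bone formation, and in C2C12 cells BMP treatment is known for turning myoblasts towards osteoblasts. SOX9 and matrilin-2 are not restricted to cartilage, whereas matrilin-1 and matrilin-3 are mainly cartilage proteins. The question put to these data is whether BMP4 or a compound raised a cartilage programme beside the bone one.

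BMP4 moved 2 of the 10 genes past the test. Matn2 rose and Sox9 fell, and neither the aggrecan gene nor the other matrix genes of the group passed. The comparison was the mean over the 3 BMP4 doses minus untreated cells in limma, with a term for the labelling method, and calls were made where the Benjamini-Hochberg adjusted p over all genes was under 0.05. In that comparison 8.81% of all 22180 genes were called, 4.20% as higher and 4.60% as lower, so 1 member in each direction lay near the background share. The median change was -0.03 over the 10 members and -0.01 over all genes. Nothing in the labels states that replicate arrays are separate cultures. The p-values therefore reflect the spread between these arrays alone, which may be technical.

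Matn2, the gene of matrilin-2, an adaptor protein of the extracellular matrix in many tissues, had the largest change of the 10. Its log2 signal was 8.74 and 8.81 in untreated cells and 8.81, 8.91 and 8.96 with methanol. BMP4 at 10 ng/ml gave 9.70 and 9.65, 100 ng/ml gave 9.59 and 9.89, and 300 ng/ml gave 9.49 and 9.46. All 6 BMP4 arrays therefore lay above all 5 control arrays, as they did for 3.19% of all genes. The rise was 0.85 on the log2 scale (SE 0.10, adjusted p = 0.000235), or 1.80-fold, and it was called under each of the 30 other settings tried. Of these, the settings that leave out a compound array or BMP4 300 ng/ml replicate 1 leave the estimate unchanged and do not test the call. The titles number the arrays in 2 consecutive runs, each with its own untreated array. As deposited, with no labelling term, the difference from untreated cells was 0.85 within the run of lower title numbers and 0.86 within the other.

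The rise of Matn2 was called at the lowest dose, and no step between doses was called. It stood at 0.90 at 10 ng/ml (SE 0.12, adjusted p = 0.00324), 0.97 at 100 ng/ml (adjusted p = 0.000300) and 0.68 at 300 ng/ml (adjusted p = 0.0117), where the labelling term leaves replicate 2 alone to give the value. Matn2 was the 1 member of 10 called at each dose, while the shares of all genes called were 1.10%, 9.15% and 7.98% in rising order of dose. Without untreated replicate 1 its call at 300 ng/ml was lost (0.65, adjusted p = 0.0593). The slope per doubling of dose was -0.03 (95% interval -0.09 to 0.03) and did not pass.

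Sox9, the gene of the factor that commits cells to cartilage, had a high signal in every array and was lower with BMP4. It read 9.86 and 9.99 in untreated cells and 9.90, 9.98 and 9.92 with methanol. BMP4 at 10 ng/ml gave 9.51 and 9.33, 100 ng/ml gave 9.72 and 9.48, and 300 ng/ml gave 9.75 and 9.57. All 6 BMP4 arrays lay below all 5 control arrays, as they did for 4.59% of all genes, and the lowest pair was that of the lowest dose. The fall was -0.39 (SE 0.09, adjusted p = 0.0215), or 0.762 times the untreated level. As deposited, with no labelling term, the difference was -0.20 within the run of lower title numbers and -0.53 within the other. The run of lower title numbers holds BMP4 300 ng/ml replicate 1, which was labelled by a second method and read 0.18 above replicate 2.

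The call of Sox9 was lost in 4 settings. Without untreated replicate 1 the change was -0.46 (adjusted p = 0.0696) and without untreated replicate 2 it was -0.33 (adjusted p = 0.183). It was also lost when each array was centred on its median (adjusted p = 0.0900) and when the variance was not fitted as a trend on signal (adjusted p = 0.0699). It was called against methanol alone (-0.40, adjusted p = 0.00709) and against the pooled untreated and methanol arrays (-0.40, adjusted p = 0.00110). By rising dose, Sox9 stood at -0.50, -0.32 and -0.35, with adjusted p-values of 0.0597, 0.107 and 0.167, none of which passed. With the run of title numbers as a block the first passed (adjusted p = 0.0180) and so did the second (adjusted p = 0.0465), and the lowest dose was called in 6 of 9 other settings that kept all arrays.

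**Figure D1:**
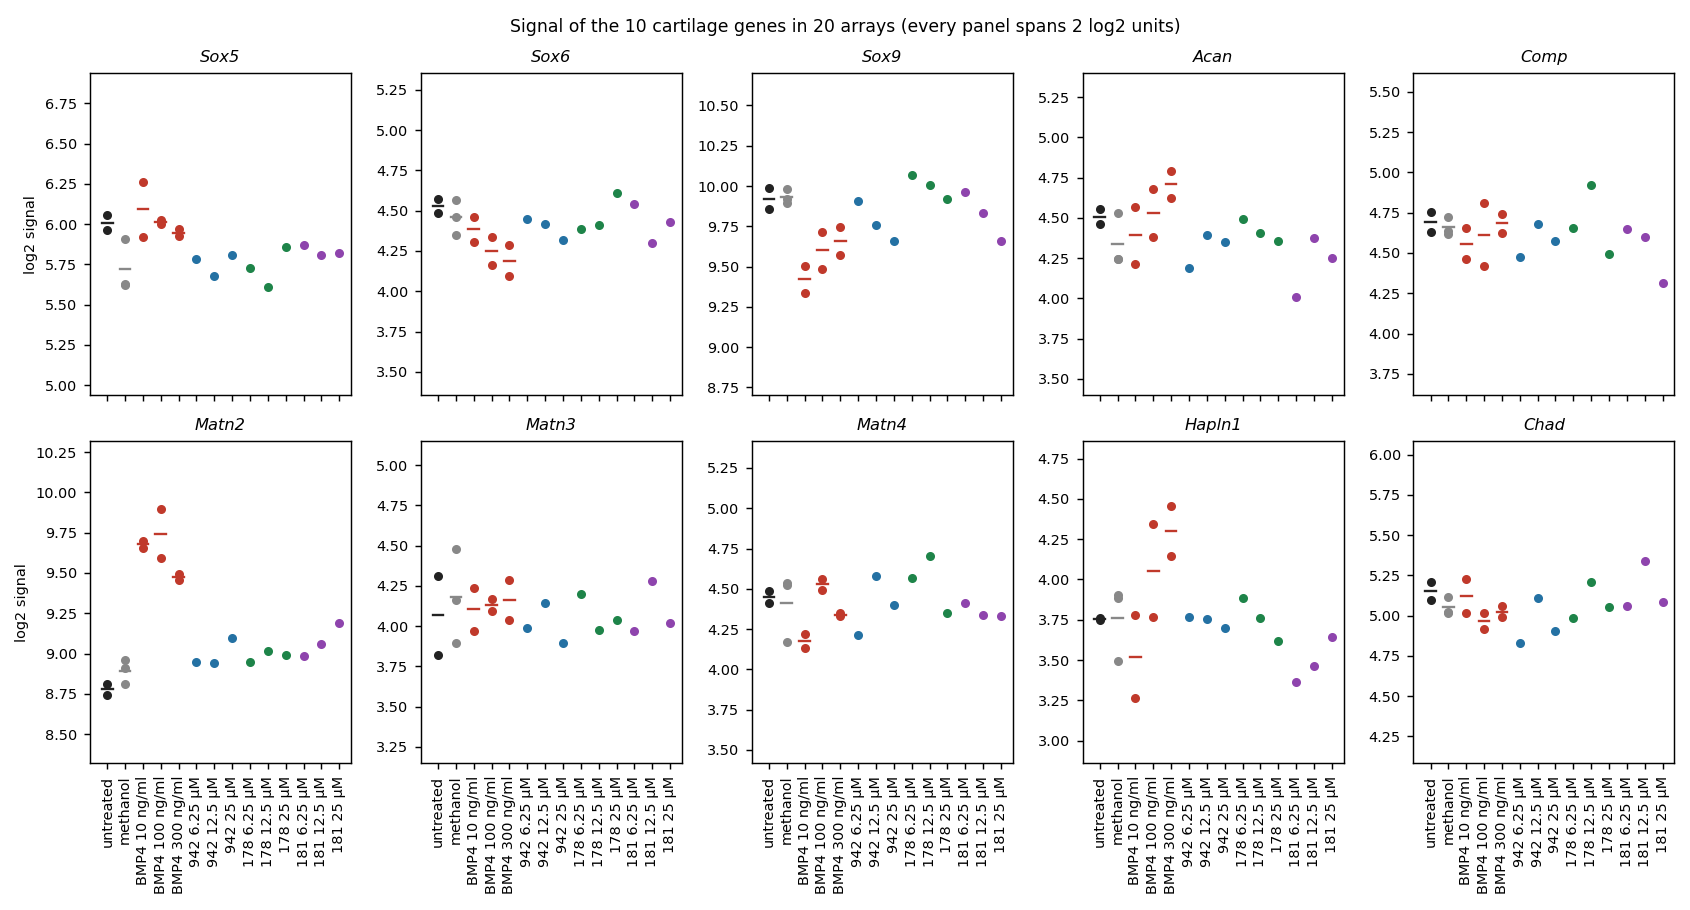
Log2 signal (vertical axis) of each of the 10 genes in every array, by treatment and dose (horizontal axis); points are arrays and short lines are means of groups with more than 1 array. Each panel spans the same range of 2 log2 units around its own centre. Matn2 lies between 9.46 and 9.89 in the BMP4 arrays against 8.74 to 8.96 in the controls, and Sox9 between 9.33 and 9.75 against 9.86 to 9.99.

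Sox5 and Sox6, the partner factors of SOX9, did not pass. Sox5 read 6.05 and 5.96 in untreated cells, 5.63, 5.62 and 5.91 with methanol, and 5.92 to 6.26 over the 6 BMP4 arrays, so the groups overlapped. Its change with BMP4 was 0.00 (95% interval -0.31 to 0.31). Sox6 read 4.57 and 4.49 in untreated cells and 4.46, 4.57 and 4.35 with methanol. BMP4 at 10 ng/ml gave 4.31 and 4.46, 100 ng/ml gave 4.34 and 4.16, and 300 ng/ml gave 4.29 and 4.09. For Sox6, 5 of the 6 BMP4 arrays lay below all 5 control arrays. The change was -0.29 (95% interval -0.58 to 0.00, adjusted p = 0.258), with -0.15, -0.28 and -0.44 at the rising doses, and it was called in 0 of the 29 other settings in which it was tested.

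No other cartilage matrix gene of the 10 passed. Acan read 4.56 and 4.46 in untreated cells, 4.24, 4.24 and 4.53 with methanol, and 4.22 to 4.79 with BMP4, with a change of 0.06 (95% interval -0.28 to 0.41). Of its 6 BMP4 arrays, 4 lay above all 5 controls and 1 below. Comp, the cartilage oligomeric matrix protein, read 4.62 to 4.75 in the 5 controls and 4.42 to 4.81 with BMP4. Its change was -0.05 (95% interval -0.37 to 0.26). Matn3, whose matrilin is a cartilage protein, read 3.82 to 4.48 in the controls and 3.97 to 4.29 with BMP4, so its controls spread more widely than its BMP4 arrays. Its change was 0.11 (95% interval -0.30 to 0.51). Matn4 stood at -0.10 (95% interval -0.41 to 0.21) and Chad, the gene of the cell-binding leucine-rich protein chondroadherin, at -0.13 (95% interval -0.40 to 0.15). For Chad, 4 of the 6 BMP4 arrays lay below all 5 controls and 1 above.

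Hapln1, the link protein gene, had the most uneven readings. It read 3.75 and 3.76 in untreated cells, 3.89, 3.91 and 3.50 with methanol, and with BMP4 in rising order of dose 3.26 and 3.78, 4.34 and 3.77, and 4.46 and 4.15. Both arrays at 300 ng/ml and 1 at 100 ng/ml lay above every control, while 1 at 10 ng/ml lay below every control. The mean change was 0.15 (95% interval -0.28 to 0.58, adjusted p = 0.773). Its slope was 0.13 per doubling of dose (SE 0.05, adjusted p = 0.238), and it passed in 1 setting, without the labelling term (0.16, adjusted p = 0.0463). No member was called for a slope by limma, with 1 of 10 at an unadjusted p under 0.05, against 5.40% of all genes called. The steps from 10 to 100 ng/ml (2.95% of all genes called) and from 100 to 300 ng/ml (0.00902%) also called 0 of 10 members, with 1 and 0 members at an unadjusted p under 0.05. Over the 8 uncalled members, the intervals of the mean BMP4 change reached from -0.58 to 0.58.

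The low readings limit what these values can show. The 1105 olfactory receptor genes, which are genes of another tissue, had a 95th percentile of 5.00 over all arrays. Sox6, Acan, Comp, Matn3, Matn4 and Hapln1 lay under that value in all 20 arrays, Chad above it in 15 of 20, and Sox5, Sox9 and Matn2 above it in all 20. Probe sets differ in how strongly they bind, so this describes the signals and does not order the genes. A change of a gene near the floor of an array is understated in log2 signal.

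**Figure D2:**
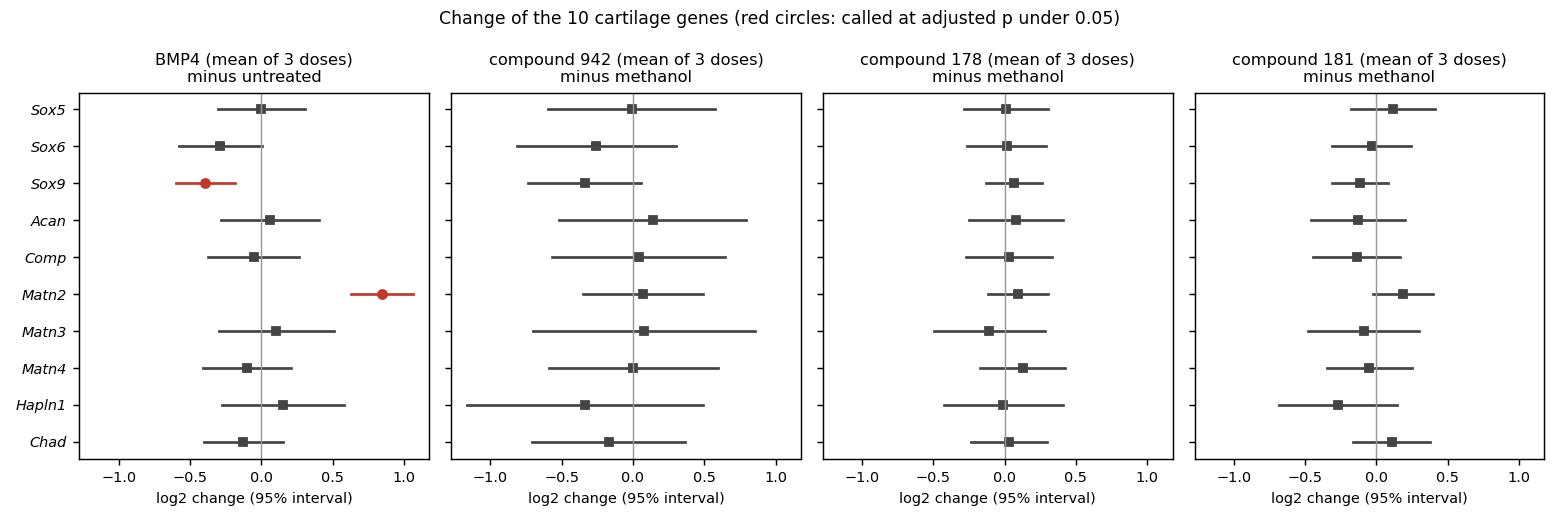
Log2 change (horizontal axis) of each of the 10 genes (vertical axis) for BMP4 minus untreated cells and for each compound minus methanol, all as means over 3 doses; lines are unadjusted 95% intervals and red circles mark genes called at an adjusted p under 0.05. Matn2 at 0.85 and Sox9 at -0.39 are called for BMP4, and 0 of the 10 genes are called for a compound.

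No compound moved a member past the test. For compounds 942, 178 and 181, as means over 3 doses minus methanol, 0 of 10 members were called by limma, with 0 at an unadjusted p under 0.05. Of all genes, 0% were called for 942, 0% for 178 and 0.00451% for 181, and methanol minus untreated called 0% of all genes and 0 of 10 members, so a count of 0 does not show that nothing changed. Matn2 stood at 0.07 in 942 (95% interval -0.35 to 0.49), 0.09 in 178 (-0.12 to 0.30) and 0.18 in 181 (-0.03 to 0.39). Acan stood at 0.14 in 942, 0.08 in 178 and -0.13 in 181, and Hapln1 at -0.34, -0.01 and -0.27 in that order. Over all members the intervals reached from -0.50 to 0.42 for 178, from -0.69 to 0.41 for 181 and from -1.16 to 0.86 for 942. All 3 arrays of 942 were labelled by a second method, Affyexpress, so its contrasts carry the error of the labelling term as well. That term rests on 1 pair of arrays, BMP4 300 ng/ml replicate 1 minus replicate 2. The pair differed by 0.31 for Hapln1 and -0.16 for Acan. As deposited, Hapln1 read 3.77, 3.75 and 3.70 in 942 against a methanol mean of 3.76. Acan read 4.19, 4.39 and 4.35 against 4.34, so these values of 942 come largely from the term.

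Matn2 with compound 181 read 8.99, 9.06 and 9.19 at 6.25, 12.5 and 25 µM, and all 3 values lay above the 3 methanol arrays (8.81 to 8.96). With 178 it read 8.94, 9.02 and 8.99, of which 2 lay above methanol, and with 942 it read 8.95, 8.94 and 9.10, of which 1 did. Every one of these 9 arrays lay below the lowest BMP4 array (9.46). The effect on Matn2 was smaller than that of BMP4 by the test of the difference for 178 (-0.76, 95% interval -1.06 to -0.45, adjusted p = 0.0114) and for 181 (-0.66, 95% interval -0.97 to -0.36, adjusted p = 0.0261). For 942 the difference was -0.78 (95% interval -1.20 to -0.36, adjusted p = 0.109), and it passed without the labelling term (-0.75, adjusted p = 0.00503). Matn2 was the 1 member of 10 called in the tests of 178 and 181 against BMP4, and 0 of 10 were called for 942, with 1 at an unadjusted p under 0.05. Of all genes 3.52% were called for 178, 2.86% for 181 and 0.780% for 942. The call of 178 was lost without untreated replicate 1 (-0.72, adjusted p = 0.0710). That of 181 was lost without untreated replicate 1 (0.135) or 2 (0.0783), methanol replicate 2 (0.0921) or 3 (0.0944) or the 6.25 µM array of 181 (0.0567), and also with median centring (0.0834) and with no variance trend (0.0759), although the difference stayed between -0.70 and -0.62 in these settings.

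Sox9 read lower at each higher dose within each compound. It was 9.90, 9.76 and 9.66 with 942 at 6.25, 12.5 and 25 µM, 10.07, 10.01 and 9.92 with 178, and 9.96, 9.83 and 9.66 with 181, against 9.90 to 9.98 with methanol. The slope per doubling of dose was -0.12 for 942 (95% interval -0.30 to 0.05), -0.07 for 178 (-0.25 to 0.10) and -0.15 for 181 (-0.32 to 0.02). The mean of the 3 slopes was -0.12 (95% interval -0.22 to -0.02, adjusted p = 0.9999). These slopes were computed after the values had been seen, and 0% of all genes and 0 of 10 members were called in each of them by limma, with 1 member, Sox9, at an unadjusted p under 0.05 in the mean slope and 0 in the slopes of single compounds. Title numbers also rose from the low to the high dose of each compound, so dose and order cannot be told apart. As means over the doses, Sox9 stood at -0.34 in 942 (95% interval -0.73 to 0.06), 0.07 in 178 and -0.12 in 181. Set against the effect of BMP4, Sox9 differed by 0.06 in 942, 0.46 in 178 and 0.28 in 181. Their adjusted p-values were 0.988, 0.0933 and 0.407, so none passed. With the untreated and methanol arrays pooled as the control of both, the control cancels and compound arrays are compared with BMP4 arrays directly. In that form the differences of 178 (0.47, adjusted p = 0.00124) and 181 (0.29, adjusted p = 0.0322) passed. The value of 942 minus methanol was -0.16 without the labelling term and -0.12 against the 1 methanol array of its own run.

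The 3 compounds were set against each other in 12 comparisons, 3 pairs as means over doses and at each of the 3 matched doses. All arrays of 942 lay in the run of lower title numbers, and all arrays of 178 and 181 in the other. The main model held no term for the run, so in comparisons of 942 with 178 or 181 compound and run cannot be told apart. In each of these 12 comparisons 0 of 10 members were called, and of all genes 0% were called except 0.00451% for 181 minus 178 over the doses. Of the 120 member values 1 had an unadjusted p under 0.05, namely Sox9 in 942 minus 178 over the doses (-0.40, 95% interval -0.80 to -0.01, adjusted p = 0.9999). That value includes the labelling term, for which the pair of BMP4 300 ng/ml arrays differed by 0.18. As deposited, Sox9 read 9.90, 9.76 and 9.66 in 942 and 10.07, 10.01 and 9.92 in 178 by rising dose. Adjusted over genes and comparisons together, the smallest p of a member was 1. At 25 µM, Matn2 differed by 0.20 between 181 and 178 (95% interval -0.17 to 0.56), by 0.07 between 942 and 178 (-0.44 to 0.59) and by -0.12 between 942 and 181 (-0.64 to 0.39). These intervals are unadjusted and rest on 1 array per dose, so differences within them, in either direction, remain possible. The size of difference that the test could detect was not computed.

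Several other genes linked to cartilage rose with BMP4. Of 58 measured genes in 4 further lists of cartilage genes, 13 rose and 1 fell. Of all genes, 4.20% rose and 4.60% fell, and these shares also stand beside the counts of each list below. Hapln3 stands in 2 of these lists and was counted once. The median change was -0.02 against -0.01 over all genes. Without BMP4 300 ng/ml replicate 2, which leaves the 2 lower doses in the mean, 6 rose, and without either untreated array 8 rose. With 1 mean fitted to all doses of a treatment, so that dose differences count as error, 3 rose. For 4 of the 58 genes all BMP4 arrays lay above all controls, and for 1 all lay below. Of all genes, 3.19% lay above and 4.59% below in this way. Runx2 and Pthlh matched no probe set and are not analysed here.

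Among cartilage matrix genes and enzymes 5 of 24 rose. They were Prg4, the lubricin of joint surfaces (4.02, SE 0.22, adjusted p = 1.09e-06), Panx3, a channel of cartilage and bone cells (3.56, SE 0.27), and Vit, a matrix protein with domains like those of the matrilins (1.63, SE 0.14). The other two were Ccn2, a matricellular growth factor (1.47, SE 0.16), and Papss2, which makes the sulfate donor for proteoglycans (1.40, SE 0.22). Of 17 transcription factors and signals 2 rose and 1 fell. The receptors Pth1r and Fgfr3, both found on growth plate chondrocytes, rose by 1.32 and 1.27, or by 0.83 and 0.81 if replicate 2 of BMP4 300 ng/ml was left out, and Mef2c, which also acts in muscle, fell by 0.53 (adjusted p = 0.0460). Of 10 lecticans, link proteins and thrombospondins 4 rose, all by less than 1 on the log2 scale: Vcan (0.69), Thbs1 (0.52), Thbs2 (0.65) and Thbs3 (0.70). Vcan is the lectican next of kin to Acan, and the thrombospondins are the family of Comp.

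Of 8 cartilage collagens 2 rose, Col11a1 (0.54) and Col2a1, the main fibrillar collagen of cartilage and a known SOX9 target. Col2a1 read 6.15 and 5.87 in untreated cells and 5.68 to 5.95 with methanol. BMP4 at 10 ng/ml gave 5.83 and 6.0, 100 ng/ml gave 7.73 and 6.36, and 300 ng/ml gave 8.17 and 8.01. The 10 ng/ml arrays thus lay within the controls, and the pair at 100 ng/ml was far apart. Its mean change was 0.98 (SE 0.27, adjusted p = 0.0467), and 0.47 (adjusted p = 0.466) without BMP4 300 ng/ml replicate 2. At 300 ng/ml it stood at 2.00 (SE 0.40, adjusted p = 0.00750), and its slope was 0.41 per doubling of dose (SE 0.08, adjusted p = 0.00697). Col10a1, the collagen of hypertrophic chondrocytes, stood at 0.34 (adjusted p = 0.515), and Matn1, the matrilin of cartilage, at -0.22 (adjusted p = 0.468).

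The calls of Col2a1, Fgfr3 and Pth1r depended on the model and on which arrays entered the fit. With 1 mean fitted to all doses all 3 calls were lost (adjusted p = 0.306, 0.102 and 0.178 in that order). In that setting the calls of Panx3 (3.09, adjusted p = 0.097), Vit (1.39, adjusted p = 0.0882) and Papss2 (1.12, adjusted p = 0.158) were lost as well, while Prg4 and Ccn2 kept theirs. At 10 ng/ml Panx3, Vit and Papss2 stood at 0.10, 0.15 and 0.12, and none of them was called. The call of Col2a1 was also lost with no variance trend (adjusted p = 0.0675). Leaving out a compound array or BMP4 300 ng/ml replicate 1 leaves the BMP4 estimate unchanged. The counts that follow therefore include settings that do not test these calls. The mean change of Col2a1 was called in 12 of the 20 settings that leave out 1 array (adjusted p from 0.000167 to 0.466), that of Fgfr3 in 16 (0.000471 to 0.263) and that of Pth1r in 17 (2.48e-05 to 0.166). Those of Fgfr3 and Pth1r were lost without either untreated array or BMP4 300 ng/ml replicate 2, and that of Fgfr3 also without BMP4 10 ng/ml replicate 1. That of Col2a1 was lost without either untreated array, any of the 3 methanol arrays, either BMP4 10 ng/ml array or BMP4 300 ng/ml replicate 2. Its change nevertheless stayed at 0.98 without a methanol array, which enters only the error, and between 0.84 and 1.12 without an untreated or a 10 ng/ml array. Its slope was also lost without BMP4 300 ng/ml replicate 2 (0.34, adjusted p = 0.102). The call of Papss2 was lost without BMP4 300 ng/ml replicate 2 (0.71, adjusted p = 0.102), where Vit stood at 1.04.

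**Figure D3:**
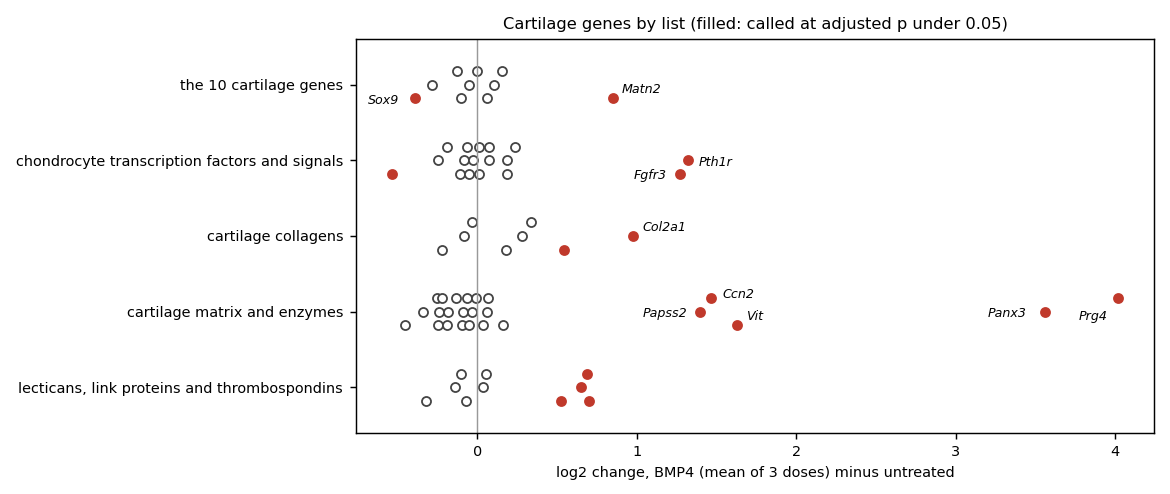
Log2 change with BMP4 (mean over 3 doses minus untreated cells, horizontal axis) of the 10 genes and of the 4 further cartilage lists (vertical axis, with genes spread vertically within a list); filled points are called at an adjusted p under 0.05. Of the 10 genes, Matn2 lies at 0.85 and Sox9 at -0.39, while Prg4 at 4.02 and Panx3 at 3.56 lie farthest out among the other cartilage genes.

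Bone genes rose in the same arrays, several by more than any of the 10. Of 14 measured osteoblast genes 10 rose, with a median change of 1.26, while 4.20% of all genes rose. Pth1r is among the osteoblast genes that rose, so it counts in both the cartilage and the bone list. With 1 mean fitted to all doses, Alpl (2.70, adjusted p = 0.0921) and Bglap (1.16, adjusted p = 0.202) were not called, while Sp7 was. At 300 ng/ml Sp7, the osteoblast factor osterix, stood at 6.18, Alpl, the alkaline phosphatase of mineralizing cells, at 5.56 and Bglap, osteocalcin, at 2.95, against 0.68 for Matn2, 0.28 for Acan and -0.35 for Sox9. Ibsp, the gene of bone sialoprotein, did not pass at that dose (-0.24, adjusted p = 0.701). Dmp1, another gene of the osteoblast list, was called as lower there (-0.74, adjusted p = 0.0260), beside 9 of the 14 called as higher. It was also lower at 100 ng/ml (-0.68, adjusted p = 0.0132). At 10 ng/ml 1 of 14 osteoblast genes was called, Phex, an endopeptidase gene of bone cells (1.89, adjusted p = 0.0264). Matn2 stood at 0.90 and was called, while Sp7 stood at 0.99 (adjusted p = 0.519) and Alpl at 0.37 (adjusted p = 0.879). No difference between genes was tested. In the compounds 0 of 58 cartilage list genes and 0 of 14 osteoblast genes were called by limma, with 0, 1 and 3 cartilage list genes and 0, 0 and 2 osteoblast genes at an unadjusted p under 0.05 for 942, 178 and 181.

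**Figure D4:**
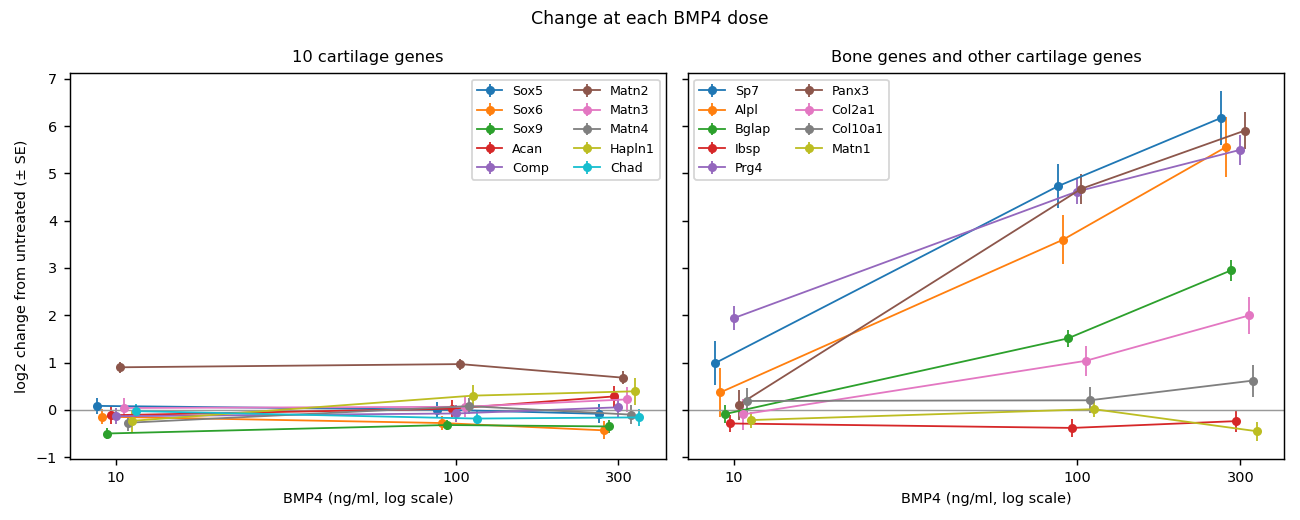
Log2 change from untreated cells (vertical axis, with SE) at each BMP4 dose (horizontal axis, log scale) for the 10 genes on the left and for bone genes and other cartilage genes on the right; points of 1 dose are shifted sideways for sight. Matn2 stands at 0.90 at the lowest dose and 0.68 at the highest, while Sp7 goes from 0.99 to 6.18 and Col2a1 from -0.10 to 2.00.

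Some markers of other cell types moved with BMP4 as well, in a comparison where 4.20% of all genes rose and 4.60% fell. Of 10 muscle genes 8 fell, and the mean signal of that list was 9.81 to 10.0 in the control arrays and 7.54 to 9.82 with BMP4. Of 6 adipocyte genes 3 rose, of 5 fibroblast genes 3 rose, of 5 tendon genes 1 (Scx) fell, and of 5 epithelial genes 1 (Krt14) rose. No macrophage (6 genes) or endothelial (5 genes) marker was called by limma, with 2 and 0 at an unadjusted p under 0.05, although the mean of the macrophage list was 4.49 to 4.65 in the controls and 4.67 to 4.79 with BMP4. The defining myoblast genes Myod1 (8.95 to 10.95), Myf5 (8.70 to 9.94) and Des (10.6 to 11.7) read high in all 20 arrays, whereas other muscle genes such as Myh3 (4.08 to 9.71) and Myog (5.94 to 11.3) ranged widely. Every array lay above the olfactory receptor percentile for 9 of 10 muscle genes, 0 of 5 endothelial genes, 2 of 6 macrophage genes (Cd68 and C1qa) and 2 of 5 epithelial genes (Cdh1 and Krt8). Ptprc stayed at or under 3.82 and Epcam at or under 3.92. In bulk RNA, fewer cells of a type and less RNA per cell cannot be told apart, and the part of these shifts in the values of Matn2, Sox9 or Col2a1 was not tested.

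Among all genes, those most like Matn2 over the 20 arrays were the carbonic anhydrases Car2 (Pearson's r = 0.97) and Car3 (0.96), and Ypel2 (0.96). With BMP4 Car2 rose by 2.21, Car3 by 2.73 and Ypel2 by 0.81. Those most like Sox9 were Rnf144b, Tmem158 and Dusp5, each with r = 0.89, and they fell by 0.93, 0.69 and 0.66. Within the 10 genes, Sox9 and Matn2 ran most opposite (r = -0.83) and Acan and Hapln1 most alike (r = 0.66). These correlations are descriptions over arrays that share treatments, runs and labelling.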

How the data were processed

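The deposited table holds log2 signals, 1 per probe set and array, which the authors made with Partek 6.5 and RMA (background correction, quantile normalization and probe summary) per the submitters' processing notes. Some RNA was labelled by a second method, Affyexpress, given for 4 arrays (BMP4 300 ng/ml replicate 1 and all of compound 942) per the labels. The labels mention samples labelled by both methods as a basis for batch correction, but not whether these values carry one, and no genome build is named. The values were used as they stood. Array medians lay between 4.93 and 5.05. Of 41345 probe sets, 23521 carried 1 symbol, 1814 several and 16010 none. For a gene with several probe sets the one with the highest mean stood for it.

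All tests used limma 3.58.1 in R 4.3.3 on all 22180 genes and 20 arrays, with 1 mean per treatment and dose, a labelling term, a variance trend and Benjamini-Hochberg adjustment. The fit left 5 residual degrees of freedom and was tested on simulated data. A compound dose with its lone array borrows its error from the replicated groups. Replicates were numbered in accession order. Besides the members, the text names list genes called with a BMP4 change of at least 1 on the log2 scale, Sp7, Alpl, Ibsp, Bglap, Col2a1, Col10a1 and Matn1, and the 3 genes most like each called member. Other list genes called in a list, and the genes named for other cell types, were named after their values were seen. The members and lists were chosen with earlier results of these data known.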

Additional observations from a re-analysis of the deposited data

How the results depend on the processing

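Member values and counts, and the named genes for BMP4 and the compounds, were recomputed under 10 other settings and with each of the 20 arrays left out, where the setting gave a value. A common dose mean gave none for single doses, steps or slopes, and the filter on dim probe sets dropped 6 members. The count of 2 members called for BMP4 was 1 with median centring and 1 with no variance trend, and ran from 1 to 2 over the arrays left out. The single member called at 10 ng/ml became 2 without the labelling term, with a run term, with methanol or with all control arrays as the control, after quantile normalization, after a filter on dim probe sets, and 1 to 2 over the arrays left out. At 100 ng/ml it became 2 with the run term and with all control arrays together, and at 300 ng/ml it was 0 to 1 over the arrays left out. Without the labelling term 1 member had a slope. The steps between doses, the compounds and their slopes, methanol and the compound pairs called 0 members in every setting that gave a value. In a test of a compound against BMP4, a control shared by both cancels. With methanol or all control arrays as the control, it therefore compares compound and BMP4 arrays directly. Of the tests of a compound against BMP4, that of 942 called 1 member without the labelling term, with the run term and with all control arrays, and 0 to 1 over the arrays left out. That of 178 called 2 with the run term, with methanol and with all control arrays, and 0 to 2 over the arrays left out. That of 181 called 2 with methanol and with all control arrays, 0 with median centring and with no variance trend, and 0 to 1 over the arrays left out. Of the cartilage lists, 3 genes rose under a common dose mean and 6 to 13 over the arrays left out. The 1 that fell became 2 with methanol and 3 with all control arrays as the control, and 0 under a common dose mean, quantile normalization, median centring, averaged probe sets and no variance trend, and 0 to 1 over the arrays left out. No called member changed direction. Of the values of members, 8807 kept their side of the threshold, 22 passed only in another setting and 13 no longer passed, and 242 values called in neither setting had another sign. Without either array of BMP4 300 ng/ml the model gave no value for 942. The labels give no replicate numbers, so the block used was the run of title numbers, which moved the counts as given above. The small number of arrays limits the precision.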
